A study of Mus musculus with 119 samples.

Results

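The ventral tegmental area (VTA) of vehicle-treated mice was compared with 4 forebrain regions of vehicle-treated mice by bulk RNA sequencing. The VTA libraries were chosen by their titles, without use of any measured value, and numbered 11 of the 119 libraries of the series. The regions set against them were the nucleus accumbens (NAc), the amygdala (Amy), the prefrontal cortex (PFC) and the region titled DMS, with 12 vehicle libraries each. In the study, adolescent mice of both sexes received delta-9-tetrahydrocannabinol (THC) or vehicle, and RNA was taken from punches of the 5 regions after behavioural testing. The animals were labelled C57BL/6J and 11 weeks old, while the study's methods name the substrain C57BL/6NCrl. All mice used here received daily injections of the vehicle, made of ethanol, Tween and saline, from postnatal day 28 to postnatal day 48, and behavioural tests began on postnatal day 63, so every group compared shares the injections and the tests. The VTA group held 6 female and 5 male libraries, and each other region held 6 female and 6 male libraries. DMS stands for dorsal medial striatum in the study's methods, whereas the tissue label of the same libraries names the dorsolateral striatum. A punch takes neighbouring nuclei with its target. The labels name no mouse for a library, and regions of the same mice could not be paired.

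A gene was called VTA-enriched when it was higher in the VTA than in both the NAc and the Amy, each at an adjusted p below 0.05 and a log2 fold change of at least 1, and VTA-depleted when it was lower in both by the same measures. The VTA, NAc and Amy libraries stand in one count table, and the PFC and DMS libraries in another. For this reason the contrasts with PFC and DMS are given beside the call and do not enter it, and in them the region and the table cannot be told apart. Levels are given as CPM, the counts of a gene relative to the library's scaled total, scaled by the trimmed mean of M values (TMM) over all 59 vehicle libraries, which sets levels of one gene side by side across libraries but does not account for gene length. Log2 fold changes, their standard errors (SE) and adjusted p-values come from edgeR.

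The VTA is a small midbrain region whose best known neurons make dopamine and send it to the accumbens, the amygdala and the cortex. Those neurons take up tyrosine, hydroxylate and decarboxylate it to dopamine, load the product into vesicles and recapture it at the membrane. Midbrain dopaminergic neurons are specified in the embryo at the floor plate by a set of transcription factors that many of them keep in adult life. GABA and glutamate neurons lie among them, and the red nucleus, the interpeduncular nucleus, the mammillary nuclei and myelinated tracts lie close by. The NAc and the striatum are built mainly of GABAergic medium spiny neurons, and the cortex and basolateral amygdala hold glutamatergic projection neurons.

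Total expected counts ran from 3090998 to 60022122 in the VTA libraries with a median of 18629568, from 12091765 to 37788972 in NAc, from 9663291 to 56648771 in Amy, from 20299010 to 25470245 in PFC and from 17826631 to 24583805 in DMS. Sex-linked genes matched the labelled sex in all 59 vehicle libraries. One VTA library stood apart. The male library FTL_371 was the shallowest, with 3090998 counts, and held Slc6a3 at 564 CPM against 1100 to 1679 CPM in the other 10 VTA libraries. En1 was at 26.3 CPM in it against 65.2 to 95.3, and Pax5 at 8.26 CPM against 11.3 to 48.4. The mammillary gene Foxb1, at 75.8 CPM, was higher in it than in the other 10, where it reached 51.7 CPM in the female library FTL_358. The counts over all genes, and those of each gene list whose counts changed, are therefore also given without FTL_371.

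Of 16884 genes tested against NAc and Amy, 1067 were VTA-enriched, which is 6.32% of those tested, and 1021 were VTA-depleted, which is 6.05%. Without FTL_371 the counts were 1064 and 1056. Against NAc alone, 1774 genes were higher in the VTA (10.5% of those tested) and 1693 lower (10.0%). Against Amy alone, 1364 genes were higher (8.08%) and 1365 lower (8.08%). The median log2 fold change of all genes tested was 0.00 against NAc and -0.01 against Amy. Among the enriched genes the smaller of the 2 log2 fold changes had a median of 1.41 and was at least 3 in 90 genes. Among the depleted genes the median was 1.61, and 148 genes fell by at least 3 on the log2 scale in both contrasts. All 11 VTA libraries lay above all 24 NAc and Amy libraries for 667 of the enriched genes, and below them for 586 of the depleted genes. Across all genes tested that held for 1608 genes above (9.52%) and 1376 below (8.15%). These libraries measure whole punches, in which fewer cells of a type and less RNA per cell cannot be told apart.

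**Figure D1:**
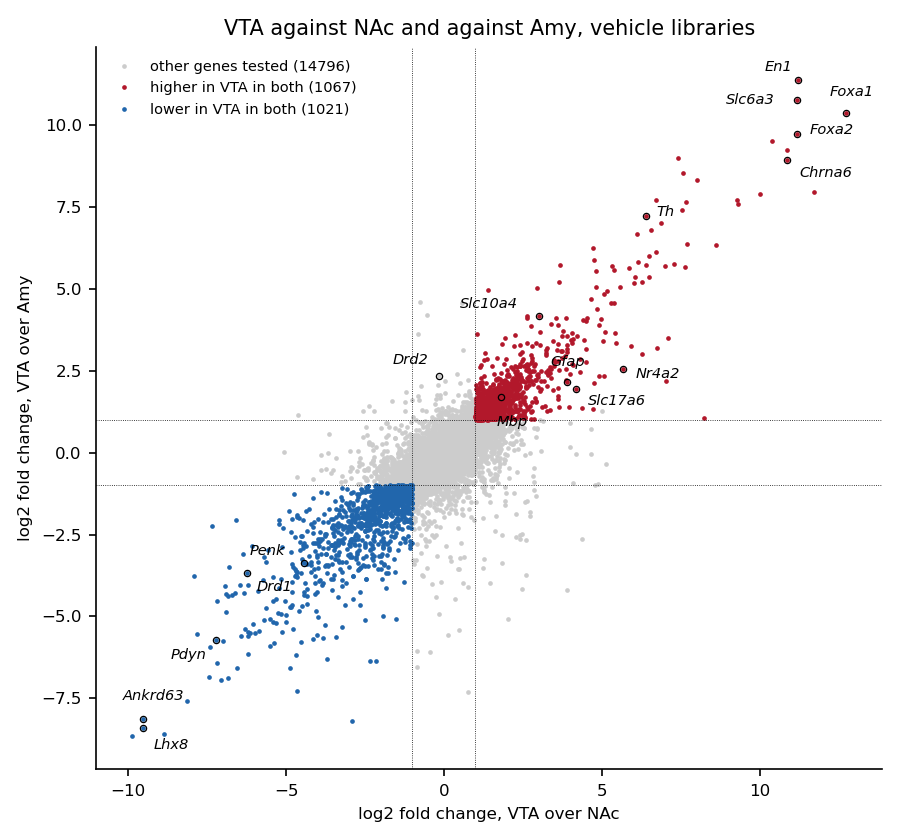
Each point is 1 of the 16884 genes tested, placed by its log2 fold change of VTA over NAc (horizontal axis) and of VTA over Amy (vertical axis), with the 1067 VTA-enriched genes in red and the 1021 VTA-depleted genes in blue. Dotted lines mark a log2 fold change of 1 either way, and the axes share the 11 VTA libraries. En1, Slc6a3, Foxa1 and Foxa2 lie at the upper right and Lhx8 and Ankrd63 at the lower left, while Drd2 lies near 0 against NAc.

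The 4 genes taken as markers of the region were all enriched. Slc6a3 (chr13:73536747-73578672, GRCm38) encodes the plasma membrane dopamine transporter. Its level in the VTA was 564 CPM at the lowest, 1289 at the median and 1679 at the highest, against 0.263, 0.475 and 1.16 CPM in NAc and 0.606, 0.699 and 1.03 CPM in Amy. The lowest VTA library thus stood far above the highest library of either region, and PFC and DMS reached only 0.494 and 0.269 CPM. The log2 fold change was 11.18 (SE 0.18, adjusted p = 1.66e-33, edgeR) over NAc and 10.78 (SE 0.17, adjusted p = 3.27e-33) over Amy.

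Chrna6 (chr8:27403212-27413944) encodes a nicotinic acetylcholine receptor subunit typical of dopaminergic neurons. It ran from 93.3 CPM in FTL_371, or 144.7 CPM in the next library, to 239 CPM in the VTA with a median of 190, from 0 to 0.285 CPM in NAc and from 0.113 to 0.872 CPM in Amy, with log2 fold changes of 10.86 (SE 0.24) and 8.93 (SE 0.20). En1 (chr1:120602418-120607992) encodes a homeodomain factor of the midbrain and the midbrain-hindbrain border. The En1 level was 26.3 to 95.3 CPM in the VTA with a median of 73.9, and no library of the 4 forebrain regions exceeded 0.141 CPM. The En1 log2 fold change was 11.23 (SE 0.23) over NAc and 11.39 (SE 0.23) over Amy in edgeR. Values of this size rest on near-zero forebrain counts and depend on the prior count of the fit.

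Slc10a4 (chr5:73006883-73012955) encodes a vesicular protein found in monoaminergic and cholinergic neurons, and it was the marker with the smallest difference. Its level ran from 67.9 CPM in FTL_371, or 132.3 CPM in the next library, to 192 CPM in the VTA with a median of 149, from 13.5 to 24.3 CPM in NAc and from 2.76 to 14.4 CPM in Amy. The groups did not overlap, and the log2 fold change was 3.0 (SE 0.17, adjusted p = 7.76e-17, edgeR) over NAc and 4.18 (SE 0.19, adjusted p = 8.80e-20) over Amy. In DMS it was at a median of 16.9 CPM, and in PFC at 0.103 CPM. The order of the forebrain regions by median was NAc, DMS, Amy and PFC, and the ranges of NAc and DMS overlapped, as did the edges of NAc and Amy.

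**Figure D2:**
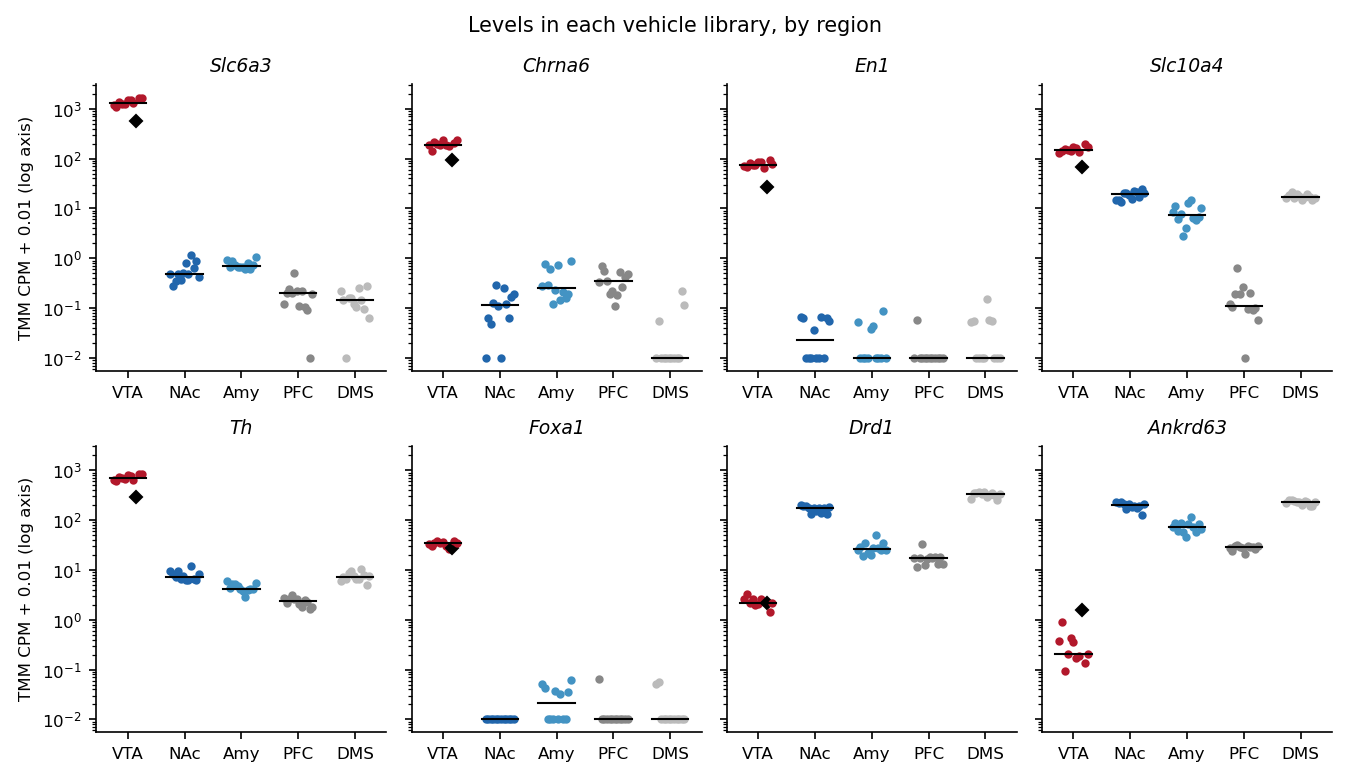
Level of 8 genes in every vehicle library of the 5 regions, as TMM-scaled CPM plus 0.01 on a log axis, with 1 point a library and a line at the region's median (11 VTA libraries, 12 in each other region). Black diamonds mark the VTA library FTL_371. Slc6a3, Chrna6, En1, Slc10a4, Th and Foxa1 are higher in every VTA library than in any forebrain library, and Drd1 and Ankrd63 are lower.

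Of 14 genes of dopamine synthesis, storage, uptake and breakdown, 7 were enriched and 0 depleted. Their median log2 fold change was 1.22 over NAc and 1.88 over Amy. Th, the rate-limiting tyrosine hydroxylase, was at 294.5, 690 and 836 CPM (lowest, median, highest) in the VTA, at 6.12, 7.33 and 11.9 CPM in NAc and at 2.91, 4.22 and 5.87 CPM in Amy. The lowest Th level was that of FTL_371, and the other 10 VTA libraries were at 615.2 CPM or more. The Th groups did not overlap, with log2 fold changes of 6.41 (SE 0.15) and 7.24 (SE 0.15). Ddc, the aromatic amino acid decarboxylase, had log2 fold changes of 4.86 and 4.39, with medians of 637 CPM in the VTA, 22.2 in NAc and 31.0 in Amy. Slc18a2, the vesicular monoamine transporter, ran from 232 CPM in FTL_371, or 355.8 CPM in the next library, to 595 CPM in the VTA and reached 7.56 CPM in NAc and 5.6 CPM in Amy.

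The cofactor side of the pathway was split. Gch1, which makes the first committed step to tetrahydrobiopterin, the cofactor of Th, had a median of 33.0 CPM in the VTA, 0.703 in NAc and 1.06 in Amy. Qdpr, which regenerates the cofactor, was enriched by a log2 fold change of 1.48 (SE 0.09) over NAc and 1.43 (SE 0.09) over Amy. Pts and Spr, the enzymes between, did not reach the fold threshold, at 0.31 and 0.84 over NAc and at 0.15 and 0.34 over Amy on the log2 scale. Aldh1a1, an aldehyde dehydrogenase of a subset of dopaminergic neurons, was at 482 to 1095 CPM in the VTA and at most 21.9 CPM in NAc and 24.0 CPM in Amy. Among the breakdown enzymes Maoa had log2 fold changes of 0.95 and 0.70 and Maob 0.59 and 0.53 over NAc and Amy, neither past the fold threshold in either contrast.

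Drd2, which encodes the dopamine autoreceptor as well as the receptor of indirect-pathway striatal neurons, separated the 2 contrasts. It was at 48.0, 108 and 141 CPM in the VTA and at 83.2, 121 and 162 CPM in NAc, so these ranges overlapped and the log2 difference was -0.17 (SE 0.19, adjusted p = 0.407, edgeR). In Amy it ran from 7.41 to 49.7 CPM, and the log2 fold change of the VTA was 2.33 (SE 0.20, adjusted p = 2.50e-12). Without FTL_371, whose Drd2 level of 48.0 CPM was the lowest, the VTA and Amy libraries did not overlap. The other 2 regions lay on either side, with medians of 1.19 CPM in PFC and 267.8 CPM in DMS.

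Of 14 transcription factors of midbrain dopaminergic neurons, 10 were enriched, with median log2 fold changes of 5.37 over NAc and 5.04 over Amy. Foxa1, a forkhead factor of the floor plate, was at 26.3 to 38.4 CPM in the VTA, at 0 counts in all 12 NAc libraries and at no more than 0.0513 CPM in Amy. Set against a floor of 3 counts over the NAc group, Foxa1 was at least 2994-fold higher in the VTA. Its relative Foxa2 ran from 8.24 to 16.6 CPM and was at least 1040-fold higher over the same floor. Both factors were also at or near 0 in PFC and DMS.

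Lmx1a and Lmx1b, LIM-homeodomain factors of the same lineage, had medians of 13.9 and 35.0 CPM in the VTA and at most 0.875 and 0.410 CPM in any NAc or Amy library. Pitx3, required for dopaminergic neurons of the midbrain, ran from 7.34 CPM in FTL_371, or 11.2 CPM in the next library, to 17.6 CPM against at most 0.212 CPM. En2, the paralogue of En1, was at a median of 26.1 CPM against 0.717 in NAc and 0.730 in Amy. Nr4a2, the orphan nuclear receptor Nurr1, was less restricted, with 57.2 to 90.0 CPM in the VTA, 0.470 to 3.46 CPM in NAc and 9.44 to 14.0 CPM in Amy. It was at a median of 13.7 CPM in PFC and up to 31.6 CPM there. Otx2 was at 4.58 to 7.33 CPM in the VTA and 1.47 to 3.82 CPM in NAc, but Amy ran from 0.0508 up to 4.81 CPM and overlapped the VTA. Its log2 fold change over NAc of 1.16 (SE 0.42, adjusted p = 0.0135, edgeR) became 1.26 with an adjusted p of 0.0550 in the female libraries alone. Sox6, a factor of ventral tier dopaminergic neurons, did not pass, with log2 differences of 0.17 (SE 0.10) and -0.02 (SE 0.10).

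The promoters of the dopamine genes were read from RefSeq (GRCm38.p6), and a promoter was found for 775 of the 1067 enriched genes and 661 of the 1021 depleted genes. Each window held 250 bases before and 50 after a transcription start. The 4 promoters of the dopamine pathway shown here give the 250 bases before the start, 5′ to 3′ on the gene's strand, and capitals mark a motif match: Th at chr7:142899996-142900245 on the minus strand, Slc18a2 at chr19:59260628-59260877 on the plus strand, Ddc at chr11:11898145-11898394 on the minus strand and Slc6a3 at chr13:73536497-73536746 on the plus strand.
Th: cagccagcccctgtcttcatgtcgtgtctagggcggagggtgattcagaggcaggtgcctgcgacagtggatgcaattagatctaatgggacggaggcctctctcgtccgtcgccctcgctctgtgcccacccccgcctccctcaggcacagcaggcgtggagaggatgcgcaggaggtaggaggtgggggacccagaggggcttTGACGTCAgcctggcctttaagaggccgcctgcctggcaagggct
Slc18a2: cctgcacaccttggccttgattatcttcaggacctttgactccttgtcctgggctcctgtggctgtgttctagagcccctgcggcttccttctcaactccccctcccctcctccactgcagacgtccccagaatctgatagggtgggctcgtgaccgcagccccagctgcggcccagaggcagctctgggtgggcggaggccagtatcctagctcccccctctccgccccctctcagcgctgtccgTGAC
Ddc: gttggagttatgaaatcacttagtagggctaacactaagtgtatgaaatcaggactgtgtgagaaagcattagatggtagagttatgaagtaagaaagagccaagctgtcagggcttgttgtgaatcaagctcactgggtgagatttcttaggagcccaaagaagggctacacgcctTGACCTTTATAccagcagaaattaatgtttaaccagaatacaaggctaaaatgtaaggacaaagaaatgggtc
Slc6a3: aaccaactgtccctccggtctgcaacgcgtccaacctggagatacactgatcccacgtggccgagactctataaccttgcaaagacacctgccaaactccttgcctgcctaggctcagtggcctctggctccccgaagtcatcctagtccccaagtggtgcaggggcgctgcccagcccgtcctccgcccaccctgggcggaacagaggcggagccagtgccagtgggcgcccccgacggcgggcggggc
The capitals in Th are TGACGTCA, the cyclic AMP response element, which begins at base -45 from the start. Slc18a2 holds the same letters beginning at base -4, so only their first part, before the start, is printed. In Ddc the capitals join 2 matches on the reverse strand, AAAGGTCA (the site of Nr4a factors) beginning at base -73 and TATAAA beginning at base -68, which overlap. Slc6a3 held none of the 5 motifs searched.

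The motifs were searched on both strands in the 300-base windows of 1026 enriched promoters, and the share of all 32851 promoters in the reference is given for each. AAAGGTCA was in 1.36% of the enriched promoters, 1.01% of the depleted promoters and 1.51% of all promoters. TAATCC, the site of Pitx and Otx factors, was in 6.63%, 5.96% and 7.06%. TAATTA, bound by En and Lmx1 homeodomains among many others, was in 4.29%, 4.83% and 5.29%. TGACGTCA was in 2.14%, 1.91% and 1.79%, and TATAAA in 10.7%, 10.9% and 13.6%. Among the 15715 promoters of all genes tested the shares were 1.03%, 5.70%, 2.79%, 2.82% and 7.66% in the same order. TGACGTCA and TATAAA were added to the search after the sequences had been seen. A match is only the presence of these letters.

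Chrna6 was not the only nicotinic receptor gene that was higher. Of 9 subunit genes, 6 were enriched and 0 depleted, with median log2 fold changes of 4.06 over NAc and 3.36 over Amy. Chrnb3, which assembles with Chrna6, ran from 44.0 to 110 CPM in the VTA and did not exceed 0.536 CPM in NAc or Amy. Chrna4, a subunit of the common high-affinity receptor, was at 112.2 CPM in FTL_371 and 173.1 to 299.2 CPM in the other VTA libraries against 8.53 to 19.3 CPM in NAc and 13.6 to 27.4 CPM in Amy. Its usual partner Chrnb2 was more even, with log2 differences of 0.47 (SE 0.05) and 0.49 (SE 0.05). Chrna5, Chrna3 and Chrnb4 lie side by side on chromosome 9 (chr9:54980880-55048779, GRCm38), and all 3 were enriched, with medians in the VTA of 14.3, 13.3 and 1.53 CPM. Chrna5 was also at 7.94 CPM in PFC. Chrnb4 reached no more than 3.49 CPM in any VTA library. Ret, the signalling receptor for glial cell line-derived factors, was at 347.1 CPM in FTL_371 and 559.3 to 884.8 CPM in the other VTA libraries against at most 20.8 CPM in NAc and 15.6 CPM in Amy, and was the enriched gene among 13 trophic and guidance receptors, while Plxnc1 was depleted, at -1.40 and -1.46 on the log2 scale. These counts are near the shares of 6.32% and 6.05% over all genes tested.

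Of 11 amino acid transmitter genes tested, 4 were enriched, Slc17a6, Slc6a11, Slc6a9 and Glra1, and 2 depleted, Gad2 and Slc17a8. Slc17a6, the vesicular glutamate transporter of subcortical neurons, was at 131.5, 183.2 and 374.9 CPM in the VTA, at 2.55, 10.3 and 25.7 CPM in NAc and at 18.5, 52.5 and 87.0 CPM in Amy. Its highest value was that of FTL_371, and every VTA library lay above every NAc and Amy library. Slc17a8, another vesicular glutamate transporter, had log2 differences of -3.71 against NAc and -1.22 against Amy. The latter was -0.46 with an adjusted p of 0.139 (edgeR) in the female libraries alone. In the THC libraries it was -0.16, with an adjusted p of 0.682 in edgeR. Slc17a8 had a median of only 1.14 CPM in the VTA libraries other than FTL_371. The GABA synthesis gene Gad2 was depleted, with medians of 246 CPM in the VTA, 851 in NAc and 604 in Amy. Gad1 and the vesicular GABA transporter Slc32a1 were lower in the same direction, with log2 differences of -1.19 and -0.89 against NAc and -0.81 and -0.65 against Amy, which do not meet the fold threshold in both contrasts. Of 10 tested transcription factors of midbrain GABA neurons, 7 were enriched and 1, the forebrain factor Six3, was depleted. Without FTL_371, 8 of 11 tested were enriched, as Nkx6-1 then passed the filter. Gata3 ran from 4.28 CPM in FTL_371, or 6.47 CPM in the next library, to 20.2 CPM in the VTA and reached 0.0277 CPM in NAc and 0.0547 CPM in Amy. Tal1, which acts with Gata factors, had medians of 17.5, 0.732 and 1.53 CPM in the VTA, NAc and Amy.

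Genes of some neighbouring nuclei varied widely between VTA libraries. The summed level of the mammillary list ran from 0.573 to 3.05 times its median over the VTA libraries. That of the interpeduncular list ran from 0.589 to 1.56 times, and that of the red and oculomotor list from 0.640 to 1.64 times. The thalamic sum stayed between 0.911 and 1.07 times, but Adarb1 and Calb2, at means of 249.2 and 216.1 CPM, weigh most in it. Some thalamic genes of lower level varied more, with Slitrk6 at 2.32 to 25.7 CPM and Rgs16 at 3.33 to 13.8 CPM. Of 10 tested mammillary and posterior hypothalamic genes, 6 were enriched and 1, Fezf1, was depleted, and without FTL_371 5 and 1. Foxb1, a forkhead factor of the mammillary nuclei, ran from 4.55 to 75.8 CPM in the VTA with a median of 12.6. It was highest in FTL_371 and FTL_358 and lowest in FTL_372, and the difference over NAc was 6.07 (SE 0.56) on the log2 scale. Sim1 lost its call against Amy without FTL_371, at 0.72 with an adjusted p of 0.120 in edgeR, and without FTL_358, at 0.85 with an adjusted p of 0.0820. Of 6 tested interpeduncular and raphe genes 4 were enriched, 5 of 7 without FTL_371, and 8 of 10 with DESeq2. Pax5, an early midbrain-hindbrain gene listed here for the interpeduncular nucleus, ran from 8.26 to 48.4 CPM and was lowest in FTL_371. The serotonin genes Tph2 and Slc6a4 did not pass the count filter of the edgeR fit against NAc and Amy, while DESeq2, without that filter, called both enriched. Without FTL_371 Tph2 passed the filter and was enriched in edgeR too. Tph2 was at 12.2, 8.68 and 9.16 CPM in FTL_357, FTL_362 and FTL_369 and did not exceed 1.55 CPM in the other 8 VTA libraries. Slc6a4 was at 5.37, 5.96 and 7.20 CPM in the same 3 libraries.

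Of 11 red and oculomotor nucleus genes 6 passed the filter, of which Calca and Spp1 were enriched and 4 were depleted. Without FTL_371 Pou4f1 passed as well and 3 of 7 were enriched. DESeq2, without that filter, tested 11 and called 4 enriched and 4 depleted. The cholinergic genes Chat and Slc18a3 were among the depleted, at no more than 1.88 and 0.365 CPM in any VTA library. Phox2a, which marks oculomotor neurons, reached 0.0324 CPM at most. Of 16 Hox genes, which mark the hindbrain, none passed the filter of the edgeR fit. DESeq2 tested 12 of them and called 3 enriched. Their summed level was 0.411 to 1.36 CPM in 8 VTA libraries and 5.36, 5.70 and 11.6 CPM in FTL_361, FTL_362 and FTL_371. Among 12 thalamic genes 3 were enriched and 2 depleted. Tcf7l2 ran from 6.12 CPM in FTL_371, or 12.5 CPM in the next library, to 43.7 CPM in FTL_372. The part of these neighbouring nuclei in the calls was not tested.

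**Figure D3:**
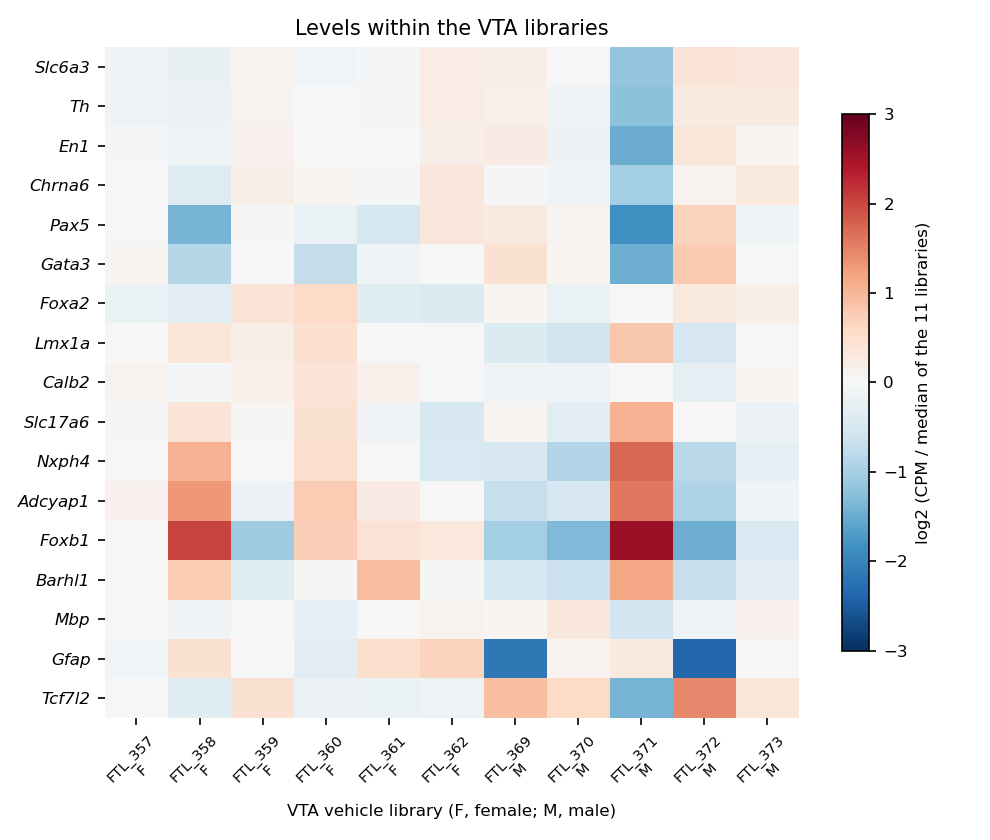
Each cell gives the level of 1 gene in 1 of the 11 VTA vehicle libraries as log2 of its ratio to the median of the 11, from blue (lower) to red (higher), with females and males marked F and M. In FTL_371 Slc6a3, Th, En1, Chrna6, Pax5 and Gata3 are below the median and Foxb1, Adcyap1, Nxph4 and Slc17a6 above it, and Gfap is low in FTL_369 and FTL_372.

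Of 25 tested peptide precursors, 10 were depleted and 3 enriched (10 and 4 of 27 without FTL_371, and 9 and 6 of 30 with DESeq2), with median log2 fold changes of -0.11 over NAc and -1.81 over Amy. Pdyn, the dynorphin precursor, was at 1.06 to 2.86 CPM in the VTA, 162.0 to 308.8 CPM in NAc and 44.2 to 121 CPM in Amy. Penk, the enkephalin precursor, was at 29.4 to 49.6 CPM in the VTA against 632 to 1025 CPM in NAc and 228 to 688 CPM in Amy. Neither gene had an overlapping library. Cartpt, also among the 10, was at -1.11 against Amy, and lost its call at -0.90 with DESeq2 or in the female libraries alone and at -0.96 without FTL_370. The enriched precursors were Adcyap1 (PACAP), Nxph4 and Calca. Adcyap1 ran from 29.1 to 164 CPM in the VTA, with its highest value in FTL_371, and from 4.32 to 30.3 CPM in Amy, so the lowest VTA library fell just within the Amy range. Cck, made by many dopaminergic neurons, lay between the regions, with medians of 36.8 CPM in the VTA, 4.36 in NAc, 127 in Amy and 332.6 in PFC.

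Among 32 tested peptide and hormone receptors, 6 were enriched and 11 depleted. Ntsr1, the neurotensin receptor of dopaminergic neurons, was at 54.7, 87.4 and 103 CPM in the VTA, at 1.90 to 8.25 CPM in NAc and 12.7 to 17.6 CPM in Amy. Its ligand gene Nts was depleted, at medians of 5.48, 25.8 and 41.7 CPM in the VTA, NAc and Amy. Ghsr, the ghrelin receptor, had medians of 8.96, 0.145 and 0.915 CPM in the same order. Lepr, the leptin receptor, had a log2 fold change of 2.12 over NAc and 2.14 over Amy, and Tacr3, Hcrtr1 and Avpr1a were the other enriched receptors. Avpr1a lost its call in the male libraries alone, at 0.37 over NAc with an adjusted p of 0.358 in edgeR. Vipr1 was at 0.363 to 1.58 CPM in the VTA against 12.7 to 23.4 CPM in NAc and 9.13 to 16.2 CPM in Amy.

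Of 12 tested opioid and cannabinoid genes, 0 were enriched and 1 was depleted, near the shares of 6.32% and 6.05% over all genes tested. DESeq2 also called 0 and 1, of 14 tested, and 9 of the 12 had an unadjusted p below 0.05 in both edgeR contrasts. That gene was Oprd1, the delta opioid receptor, with medians of 4.82 CPM in the VTA, 17.5 in NAc and 16.1 in Amy. Cnr1, the cannabinoid receptor that THC acts on, was at 42.3, 48.2 and 52.9 CPM in the VTA, at 50.2, 64.4 and 134 CPM in NAc and at 111, 173 and 207 CPM in Amy. The lowest Cnr1 levels in NAc fell within the VTA range, and the log2 difference was -0.55 (SE 0.11, adjusted p = 2.68e-05, edgeR) against NAc and -1.81 (SE 0.11, adjusted p = 1.29e-16) against Amy. It was at a median of 201.4 CPM in PFC and at 151.7 to 415.0 CPM in DMS, so the VTA had the lowest median of the 5 regions. Mgll, which breaks down the endocannabinoid 2-arachidonoylglycerol, had log2 differences of -1.70 and -0.73, and Oprm1, the mu receptor, -1.50 and -0.80, against NAc and Amy.

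Of 29 pacemaking and potassium channel genes, 5 were enriched and 2 depleted, and 3 and 2 in the THC libraries. The depleted count is near the share of 6.05% over all genes tested. Hcn2, a hyperpolarization-activated channel, was at 295.4 to 488.6 CPM in the VTA, 123 to 195 CPM in NAc and 100 to 171 CPM in Amy. Its log2 fold changes were 1.40 (SE 0.08) and 1.58 (SE 0.08), with no overlap. Kcnj6, the GIRK2 channel, had medians of 31.2, 6.07 and 15.2 CPM in the VTA, NAc and Amy, and 31.5 CPM in PFC. Hcn3 and Scn1a were also enriched. In the THC libraries Kcnj6 and Hcn3 lost their call against Amy, at 0.69 and 0.87 on the log2 scale. Scn1a was at the threshold, with a log2 fold change of 1.00 over NAc. That value was 0.92 in the female libraries alone and 0.96 to 0.99 when FTL_357, FTL_359, FTL_369 or FTL_372 was left out. Hcn4 and Kcnd3 were higher by over 1 on the log2 scale against NAc only, at 1.56 and 1.40, and had 0.69 and 0.92 against Amy. Cacna1d, the L-type channel tied to pacemaking, had log2 differences of -0.73 (SE 0.07) and -0.67 (SE 0.07) against NAc and Amy, short of the fold threshold. Kcnip2, a partner of A-type channels, was depleted, at 6.65 to 18.1 CPM against at least 104 CPM in every NAc and Amy library.

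Of 15 familial Parkinson disease and synuclein genes, Sncg was the enriched one and Lrrk2 the depleted one, which is near the shares of 6.32% and 6.05% over all genes tested. Sncg, gamma-synuclein, ran from 64.8 CPM in FTL_371 to 142 CPM, against 1.16 to 11.0 CPM in NAc and 2.01 to 5.59 CPM in Amy. Lrrk2 was at 16.9 to 23.2 CPM in the VTA and 58.3 to 91.3 CPM in NAc. Pink1, a mitochondrial kinase, was higher by 0.71 and 0.46 on the log2 scale, short of the threshold.

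Of 27 tested receptors for monoamines, acetylcholine and adenosine, 10 were depleted and 2 enriched, and 1 was enriched without FTL_371. The enriched count is near the share of 6.32% over all genes tested. Drd1, the receptor of direct-pathway striatal neurons, was at 1.43 to 3.29 CPM in the VTA, 130 to 202 CPM in NAc and 18.9 to 49.5 CPM in Amy, with log2 fold changes of -6.25 (SE 0.16) and -3.66 (SE 0.16). Adora2a, the adenosine receptor of indirect-pathway neurons, was at 1.31 to 3.49 CPM against 162.6 to 298.9 CPM and 10.8 to 137 CPM. Chrm1 was depleted as well, at medians of 5.43, 132 and 132 CPM. The enriched receptors were Adra1b and Chrm5, the muscarinic receptor of dopaminergic neurons, which was at 6.57 to 11.9 CPM in the VTA, at most 3.13 CPM in NAc and at most 6.01 CPM in Amy. The Chrm5 log2 fold change over Amy was 1.02 (SE 0.16), and it fell below the threshold, to between 0.97 and 1.00, when FTL_358, FTL_359, FTL_360, FTL_362 or FTL_371 was left out.

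**Figure D4:**
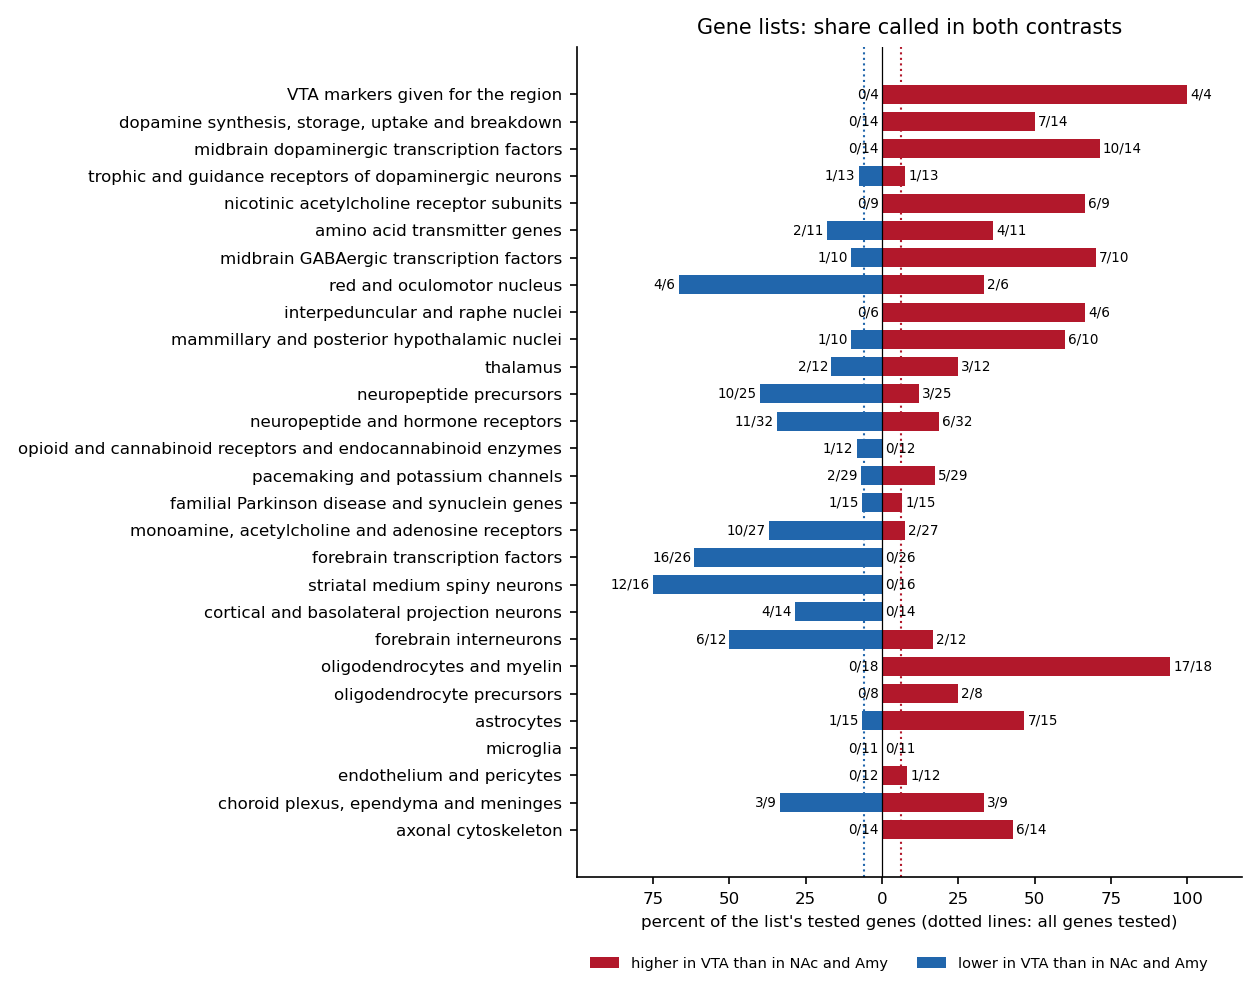
For each gene list, the share of its tested genes that were higher in the VTA than in both NAc and Amy (red, to the right) or lower than in both (blue, to the left), in percent, with the counts beside the bars. Dotted lines give the same shares over all 16884 genes tested, 6.32% and 6.05%. Markers, myelin genes and dopaminergic factors have the largest red bars, and striatal and forebrain genes, with the red and oculomotor list, the largest blue bars.

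Forebrain transcription factors were often depleted. Of 26 forebrain transcription factors, 16 were depleted and 0 enriched, with median log2 fold changes of -3.34 and -3.45. Dlx1, Dlx5 and Dlx6, factors of forebrain GABA neurons, did not exceed 1.58, 0.917 and 1.22 CPM in the VTA, and medians of 30.4, 20.9 and 32.3 CPM were found in NAc. Dlx6os1, an RNA antisense to Dlx6, had a median of 0.289 CPM in the VTA against 36.2 in NAc, and reads of the 2 overlapping genes may not be told apart. Lhx8 and Lhx6, factors of the medial ganglionic eminence, were at medians of 0 and 0.438 CPM in the VTA against 18.0 and 34.4 CPM in NAc.

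The leading 15 depleted genes also included Ankrd63, Kcnh3, Rgs14 and Rin1. Ankrd63 was at 0.0852 to 1.53 CPM in the VTA, 125 to 234 CPM in NAc and 46.3 to 115 CPM in Amy. Kcnh3, a voltage-gated potassium channel of forebrain neurons, was at 0.306 to 4.02 CPM against at least 83.7 CPM in every NAc and Amy library. Rgs14, a regulator of G protein signalling, had medians of 1.32, 76.4 and 55.2 CPM in the VTA, NAc and Amy. Rin1 had medians of 1.22, 102 and 53.2 CPM.

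Of 16 medium spiny neuron genes, 12 were depleted, with median log2 fold changes of -4.41 against NAc and -1.92 against Amy. Their summed level was 697 to 847 CPM in the VTA, 5320 to 8647 CPM in NAc and 1300 to 3457 CPM in Amy, and 10927 to 17569 CPM in DMS. Ppp1r1b, which encodes DARPP-32, was at 38.7 to 66.4 CPM in the VTA against 753 to 1327 CPM in NAc and 71.8 to 463 CPM in Amy. Of 14 projection neuron genes, 4 were depleted, Camk2a, Nrgn, Tbr1 and Fezf2. Camk2a, the alpha subunit of calcium/calmodulin-dependent kinase II, was at 97.9 to 108 CPM in the 4 other male VTA libraries, 262.7 CPM in FTL_371, 105 to 227 CPM in the females, and at least 987 CPM in every NAc and Amy library. Of 12 interneuron genes 6 were depleted, among them Sst, Npy and Lhx6, while Sncg and Pvalb were enriched, Pvalb with medians of 52.9, 3.76 and 8.20 CPM in the VTA, NAc and Amy.

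Myelin genes were the most uniformly enriched list apart from the markers. Of 18 genes of oligodendrocytes and myelin 17 were enriched, and 18 without FTL_371, with a median log2 fold change of 1.51 in each contrast. Mbp, myelin basic protein, was at 4511, 6686 and 8516 CPM in the VTA, at 1473, 1803 and 2839 CPM in NAc and at 980, 1884 and 3038 CPM in Amy. The groups did not overlap, and the lowest VTA value was that of FTL_371. Its log2 fold changes were 1.80 (SE 0.14) and 1.71 (SE 0.14). The gene short of the call was Olig2, at 0.99 (SE 0.09) over NAc. The summed level of the list was 12441 to 22481 CPM in the VTA, 4309 to 7904 in NAc and 2853 to 8832 in Amy. Of 8 precursor genes only C1ql1 and Enpp6 were enriched, and Pdgfra, the defining receptor of precursors, had log2 differences of 0.06 and -0.22.

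Of 15 astrocyte genes, 7 were enriched and 1, Mfge8, was depleted, with median log2 fold changes of 0.89 over NAc and 1.04 over Amy. The depleted count is near the share of 6.05% over all genes tested. Gfap, the intermediate filament, was at 138, 704 and 1116 CPM in the VTA, at 30.6, 41.6 and 63.4 CPM in NAc and at 76.5, 143 and 246 CPM in Amy. The libraries FTL_369 and FTL_372, at 159 and 138 CPM, lay within the Amy range, and the other 9 lay above it. Agt, angiotensinogen, was at 181.1 to 302.3 CPM in the VTA against at most 55.5 CPM in NAc and 104 CPM in Amy. Slc6a11, the GABA transporter GAT-3, was at 773 to 1046 CPM against at most 453.0 and 281.9 CPM. The glutamate transporters of astrocytes were not called depleted, with log2 differences of -1.0 and -0.74 for Slc1a3 and -0.58 and -0.37 for Slc1a2. Of 11 microglial genes 0 were enriched and 0 depleted by edgeR or by DESeq2, with median log2 fold changes of 0.28 and 0.22, though 7 had an unadjusted p below 0.05 against NAc and 6 against Amy. Of 12 vascular genes Vtn was the enriched one, near the share of 6.32% over all genes tested, and 0 were enriched without FTL_371, in the male libraries alone or in the THC libraries. Vtn was at 1.20 (SE 0.12) and 1.03 (SE 0.12), and lost its call against Amy, at 0.97 to 1.00, when FTL_357, FTL_358, FTL_361, FTL_371 or FTL_373 was left out, and in both contrasts in the male libraries alone, at 0.84 and 0.83. Of 9 tested choroid plexus, ependymal and meningeal genes 3 were enriched, the collagen and matrix genes Col1a1, Col1a2 and Lum, and 3 were depleted (3 and 4 of 10 without FTL_371). In the male libraries alone all 3 lost their call and 1 other, Foxj1, was enriched. Col1a1 was then at 0.94 and 0.86 over NAc and Amy, Col1a2 at 0.49 over NAc, short of the fold and the p threshold, and Lum at 1.03 over Amy with an adjusted p of 0.0884 in edgeR. Without FTL_358 Col1a2 was at 0.98 over NAc.

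**Figure D5:**
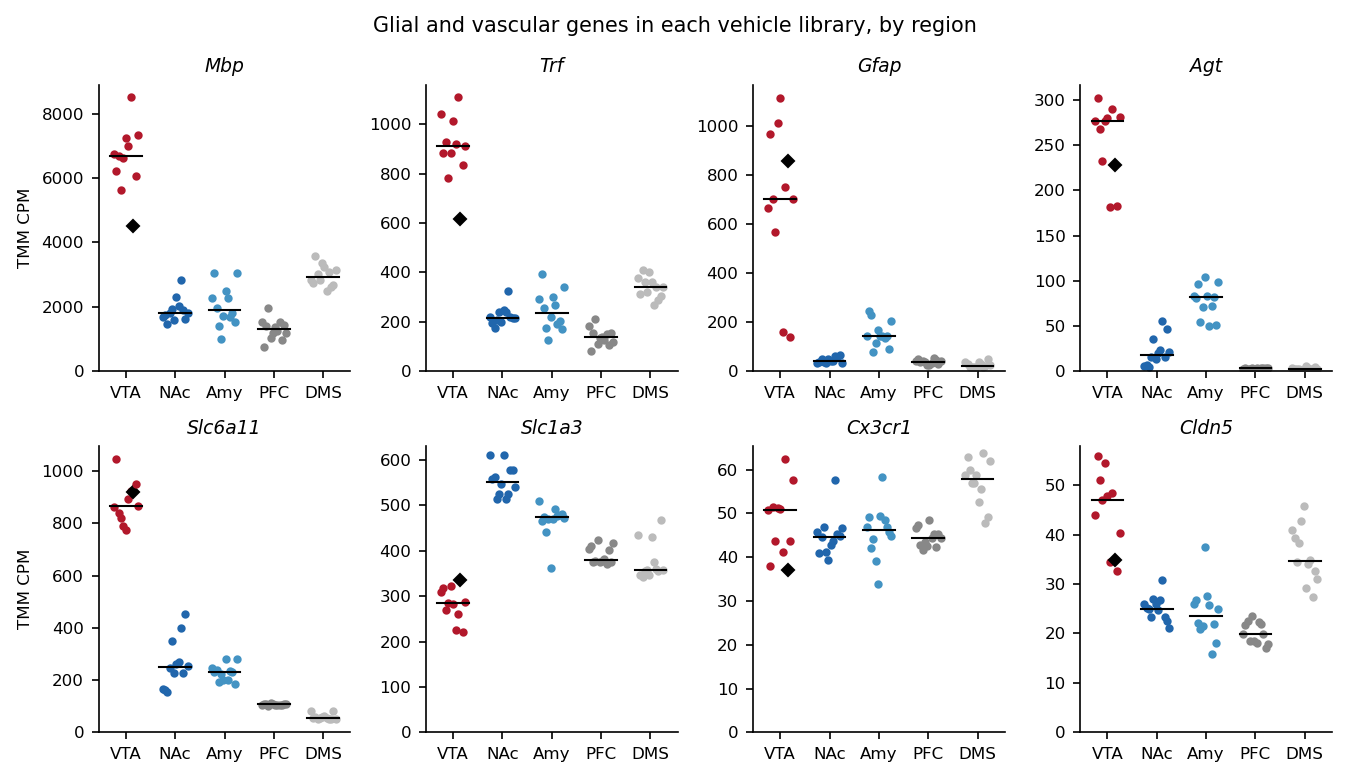
Level of 8 glial and vascular genes in every vehicle library, as TMM-scaled CPM on linear axes from 0, with 1 point a library, a line at each region's median and a black diamond for FTL_371. Mbp, Trf, Agt and Slc6a11 are higher in every VTA library than in any forebrain library, Gfap is low in 2 of 11 VTA libraries, Slc1a3 is lowest in the VTA, and Cx3cr1 ranges overlap.

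Of 14 genes listed for the axonal cytoskeleton and its terminals 6 were enriched and 0 depleted, with median log2 fold changes of 1.27 over NAc and 0.74 over Amy. They included Nefh, the heavy neurofilament, at 207 to 596 CPM in the VTA, 32.5 to 109 CPM in NAc and 41.2 to 103 CPM in Amy, and Vamp1 and Syt2, vesicle proteins of fast synapses. Prph, peripherin, was at 3.46 to 19.7 CPM and was highest in FTL_358 and FTL_371.

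Against the libraries of the other table, 2280 of 16816 genes tested were higher in the VTA than in PFC (13.6%) and 1912 lower (11.4%), and 2433 were higher than in DMS (14.5%) and 1973 lower (11.7%). Foxa2, among the leading enriched genes, had 0 counts in all 24 PFC and DMS libraries, and Kcnh3, among the leading depleted genes, was at medians of 165 and 188 CPM there. All 11 VTA libraries lay above all 48 forebrain libraries for 566 enriched genes, and below them for 393 depleted genes. Across all genes tested that held for 1189 genes above and 918 below. Under scaling by library size alone the calls against PFC became 2943 higher and 1486 lower. Of 18 myelin genes, 18 were higher than in PFC and 7 higher than in DMS, with median log2 fold changes of 1.99 and 0.98. Of 16 medium spiny neuron genes 5 were lower than in PFC and 16 lower than in DMS. Of 14 projection neuron genes, 12 were lower than in PFC, with a median of -4.61. Of 14 dopamine genes, 8 were higher than in PFC and 7 than in DMS, and the 1 lower than in DMS was Drd2, at -1.29.

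No gene passed an edgeR test of a sex difference in the VTA contrast. The number called was 0 of 16884 against NAc and 0 against Amy, while 1414 and 882 had an unadjusted p below 0.05, and DESeq2 called 12 and 21. Without FTL_371, which is 1 of 5 male libraries, edgeR called 22 and 22. Among the markers, Slc6a3 was at 1276 ± 143 CPM in females (SD, n = 6) and 1332 ± 455 CPM in males (SD, n = 5), with FTL_371 at the low end of the males.

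The contrast was repeated in the THC libraries, which are other libraries of the same regions. Sex-linked genes did not match the labelled sex in 2 of the Amy libraries, FTL_344 and FTL_356. The fits of the THC libraries had no sex covariate, unlike the vehicle fit. With FTL_344 and FTL_356 included, 1103 genes were enriched and 970 depleted. Of these, 884 enriched genes were shared with the vehicle call, which is 82.8% of the vehicle list and 80.1% of the THC list, and 844 depleted genes were shared, 82.7% and 87.0%. Without FTL_344 and FTL_356, 1167 genes were enriched and 977 depleted, of which 908 and 850 were shared. The 4 markers and all 15 leading enriched genes had log2 fold changes of the same sign, with Slc6a3 at 10.69 and 10.44 and Slc10a4 at 2.69 and 4.08 over NAc and Amy. Of the list genes, Cartpt turned: it was depleted in the vehicle libraries, at 2.29 to 35.7 CPM in the VTA, and had a log2 fold change of 2.66 over Amy in the THC libraries, where 1 VTA library held it at 1120 CPM. These are levels over the libraries of the 3 regions, both treatments scaled together. The same THC library, FTL_363, held Ucn, a peptide of the Edinger-Westphal nucleus, at 78.8 CPM, and the median of the THC VTA libraries was 0.113 CPM.

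Gene type and position, which the call did not use, are given as a description, with no test. By the GENCODE M21 annotation (GRCm38), 88.0% of the enriched genes were protein coding and 9.03% long noncoding, against 77.3% and 14.0% of the depleted genes and 87.3% and 7.25% of all genes tested. Enriched genes had an enriched gene as their nearest tested neighbour on either side in 25% of cases, and all genes tested in 12.1%. For depleted genes next to a depleted gene the shares were 25.9% and 11.4%. Runs of at least 3 adjacent enriched genes included the nicotinic cluster above, Irx3, Crnde, Irx5 and Irx6 (chr8:91798525-92680956), En2 with Cnpy1 and Insig1 (chr5:28071363-28245806), Lmx1b with C130021I20Rik (chr2:33489782-33646354), and the class II histocompatibility genes H2-Ab1, H2-Aa and H2-Eb1 (chr17:34257689-34316674). Slc10a4 stood beside 2 enriched noncoding genes, Gm15847 and Gm42668, that lie within 11 kb of it. Where genes overlap, their counts may share reads, because the strand setting of the authors' counting is not given in the sources used here.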

How the data were processed

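Poly(A) RNA from tissue punches was sequenced paired-end from directional libraries. Per the study's methods and the submitters' processing notes, the authors trimmed reads with cutadapt 2.9, aligned them to mm10 with STAR 2.7.3a and estimated gene counts with RSEM 1.3.1. The deposited values are expected counts, not normalized, in a table of 48 libraries and a table of 71 libraries, each of 55291 genes, and 4.75% and 5% of their values are not whole. They were rounded here. Per the study's methods, 1 male vehicle VTA sample was excluded for low RNA quality, 119 libraries were sequenced, and outlier checks after quantification led to the removal of 1 male VTA sample. Which library that was, and its treatment, are not given in the sources used here, and FTL_371 was kept.

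Genes were filtered by region with filterByExpr, scaled by TMM and tested with edgeR 4.0.16 (quasi-likelihood, robust, sex as covariate, R 4.3.3), with Benjamini-Hochberg adjustment over all genes tested. VTA, NAc and Amy formed one fit and VTA, PFC and DMS another. On simulated counts for the first fit, 199 of 200 changed genes were recovered among 16726 genes, with 0 other calls. For the sex interaction it was 197 of 200 among 16734 genes, with 7 and 12 other calls. Every change put in was of at least 2 on the log2 scale, and recovery of smaller changes was not tested. In the data, 230 of the 1067 enriched and 351 of the 1021 depleted genes reached 2 in both contrasts. DESeq2 1.42.0, other scalings and filters, other thresholds, each sex, the THC libraries and fits leaving out each VTA library were alternatives.

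Members and gene lists were chosen with earlier results of these data known. Named genes are those of 29 gene lists, and the 15 enriched and 15 depleted genes with the largest smaller difference over both contrasts among genes with a mean of at least 5 CPM. Genes named outside the lists were chosen after their values were seen. No VTA pair agreed within sampling noise. Nothing says which libraries came from the same mouse, so p-values measure the spread between libraries. Levels set across both tables were scaled together. Counting intervals cover counting error only. Total counts limit precision most in the shallowest VTA library. Some genes of the lists are not reported here.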

Additional observations from a re-analysis of the deposited data

Results flagged for a closer look

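Within the 6 female and the 5 male VTA vehicle libraries, each of 142 genes with a mean of at least 5 CPM was examined for a library far from the others, and 27 sets of values had one. Chance gives such a library in about 1 in 20 sets. Of the 27, 16 were in the male library FTL_371. There Foxb1 was at 75.8 CPM (4.55 to 9.24 CPM in the other males), Barhl1 at 10.1 CPM, Adcyap1 at 164 CPM, Nxph4 at 89.9 CPM, Slc17a6 at 374.9 CPM and Lhx1 at 26.9 CPM, all above the other males. Camk2a (262.7 CPM), Cartpt (35.2 CPM), Chrm1 (14.4 CPM), Rgs9 (27.8 CPM), Npy1r (9.48 CPM), Clic6 (13.1 CPM) and Prph (19.6 CPM) were high in it as well. En2 (14.1 CPM), Cnpy1 (6.73 CPM) and Sncg (64.8 CPM) were low in it.

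In the female library FTL_358, Foxb1 was at 51.7 CPM, Prph at 19.7 CPM, Slc6a11 at 1046 CPM and Itih3 at 208.5 CPM, each above the other females. In FTL_362, Chrna3 (15.5 CPM), Kcnj6 (37.4 CPM) and Car2 (316.3 CPM) were the highest. In FTL_359, Adra1a (9.20 CPM) and Nefh (340.3 CPM) were the highest. Nr4a2 reached 90.0 CPM in FTL_360 and Oprd1 7.91 CPM in FTL_361.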

How the results depend on the processing

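No paired analysis was possible because the labels name no mouse for a library and the library numbers differ between regions. Counts of called genes under an alternative are given as a percentage of the count in the report. Not every alternative and direction is listed. DESeq2 gave 153.7% of the enriched genes, 155.5% of the genes higher and 152.2% of those lower than in NAc, 156.3% and 152.2% against Amy, 156.4% of those higher than in PFC and 150.5% of those higher than in DMS. It also called 12 and 21 sex interactions where edgeR called 0. With no filter the counts were 180.2% (enriched) and 152.5% (depleted), and for genes higher and lower 192.4% and 174.3% against NAc, 190.6% and 187.1% against Amy, 180.4% and 171.2% against PFC, and 175.3% and 177.3% against DMS. A minimum log2 fold change of 0.4 gave 287.1% and 270.4%, and in the same order 247.0% and 255.9%, 276.7% and 257.1%, 202.9% and 243.1%, and 208.1% and 229.0%. A minimum of 2 gave 21.6% and 34.4%, and 24.2% and 35.4%, 21.4% and 36.6%, 33.0% and 36.5%, and 35.3% and 40.0%. Testing against a log2 fold change of 1 with glmTreat gave 59.0% of the enriched genes, and 64.7% and 60.8% of those higher than in NAc and Amy. The fold minimum sets the counts under changed thresholds. DESeq2 and the fit with no filter were run on 33459 genes against NAc and Amy and on 33472 against PFC and DMS. The report tested 16884 and 16816, so these percentages are not shares of the genes tested. For DESeq2 and the absent filter the cause was not tested. Leaving out each VTA library gave 94.5% to 102.9% of the enriched and 97.6% to 103.4% of the depleted genes, and 0 to 22 sex interactions in each contrast, the 22 without FTL_371.

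Of 9640 values for 201 named genes in both contrasts, 9352 kept direction and side of the threshold, 239 lost the call, 45 gained it and 4 changed sign. Of the losses, 135 came with a fold minimum of 2 and 40 with glmTreat. Of the gains, 22 came with a minimum of 0.4. The values are not independent, because the fits that each leave out a VTA library share the remaining libraries. Cartpt changed sign in the THC libraries, to 0.53 over NAc and 2.66 over Amy, and to 0.53 and 2.67 without FTL_344 and FTL_356, the libraries that did not match their labelled sex. Library size scaling moved the median log2 fold change of all genes to 0.19 against PFC and 0.14 against DMS. The depth of FTL_371, 3090998 counts, limits what its low genes show.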
